A study of Mus musculus with 9 samples.

Results

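The genes of the myostatin, activin and follistatin system were followed in muscle tissue and cultured muscle cells of the mouse. The 10 genes were chosen by name. They comprise 3 ligands (Mstn, Gdf11 and Inhba) and 3 secreted proteins of the follistatin family, listed as inhibitors (Fst, Fstl1 and Fstl3). The others are 2 type II receptors (Acvr2a and Acvr2b) and 2 type I receptors (Acvr1b and Tgfbr1). All 10 were found by Ensembl identifier among the 38293 genes listed for muscle tissue and the 46078 genes listed for cultured cells.

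RNA sequencing was done on 9 libraries of C57BL/6 mice. GAS is the gastrocnemius, a hindlimb muscle, taken from untreated adult female animals and sequenced from poly(A) RNA in 3 replicates. MB are primary myoblasts, the proliferating precursor cells of muscle fibers, kept on Matrigel in a growth medium with serum and basic FGF and given PBS as the control treatment (2 replicates). MB_lac are MB of the same kind whose medium held 10 mM sodium-L-lactate (2 replicates), and the labels describe the incubations as overnight. MT are primary myotubes, the multinucleated cells that MB form, after 3 days in a low-serum differentiation medium (2 replicates). Their titles mark them as controls, as those of MB do. MT and MB thus differ in medium as well as in differentiation. The RNA of all cultured cells was amplified with the Smart-seq2 protocol. The study compared these samples to relate a histone mark, lactylation of H3 lysine 18, to gene expression, and added lactate to follow its effect on expression. The labels call the libraries biological replicates without saying whether they came from separate animals or cultures, so that p-values measure the spread between these libraries, which may be technical.

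Myostatin is a TGF-beta family ligand that muscle fibers secrete and that limits muscle mass, and GDF11 is its closest relative. Activin A, a dimer of the inhibin beta A chain that Inhba encodes, acts through the same type II receptors. Each ligand binds a type II receptor (ACVR2A or ACVR2B), which then phosphorylates a type I receptor. The type I receptors among the members are ACVR1B (also called ALK4), that of activin, and TGFBR1 (also called ALK5). The type I receptor activates SMAD2 and SMAD3. Follistatin and FSTL3 bind activins and myostatin and keep them from their receptors, while FSTL1 shares the follistatin domain but is a more distant relative.

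The GAS libraries held between 19307793 and 19941574 counts and the cultured libraries between 5198247 and 10839516, so that 3 counts in a library, the limit that a count of 0 allows, correspond to at most 0.155 CPM (counts scaled to a common library size) in GAS and 0.577 in cultured cells. This limit covers counting error only. The labelled cell types were checked on marker genes. The summed level of 7 myotube markers, as CPM of all counts, was 12793 and 13173 in MT against 111 to 205 in MB and MB_lac, while 5 myoblast markers summed to 1310.1 and 1735 CPM in MT and to between 1307 and 1743 CPM in MB and MB_lac, ranges that overlap. In GAS the myoblast markers summed to between 109 and 116 CPM, and 6 markers of adult fibers summed to between 87545 and 93327 CPM in GAS. MT replicate 1 stood apart, with counts for 28599 genes against 15548 to 17965 in the other cultured libraries. It had counts for all 5 endothelial markers, which were all at 0 in MT replicate 2. The 5 macrophage markers, all of them with counts, summed to 22.2 CPM in MT replicate 1 and to 2.93 CPM in MT replicate 2, where Ptprc, Adgre1 and C1qa were at 0 and Cd68 and Csf1r held the 23 counts, against 0.270 to 1.73 CPM in MB and MB_lac. The summed level of 6 fibroblast markers was higher in both MT replicates, at 29777 and 14577 CPM against 130 to 431 CPM in MB and MB_lac. Not every marker followed the sum, since Pi16 was at 0 in MT replicate 1 and had counts in each MB and MB_lac library. Ribosomal RNA took 9.20% and 13.8% of the counts in replicate 1 of MB and of MB_lac and at most 0.575% in the other cultured libraries.

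Mstn (ENSMUSG00000026100, mm10 chr1:53061640-53068079, plus strand) was the most abundant of the 10 genes in GAS. Its CPM was 98.9, 87.1 and 76.9 in GAS replicates 1 to 3, from 1947, 1721 and 1481 counts. Per kilobase of exon its level was 32.4 ± 4.07 RPKM (SD, n = 3), which placed it at rank 1005 of the 9874 genes with a mean RPKM over 1, above 89.8% of them. In cultured cells Mstn was covered by few counts, 29 and 2 counts in MT, 9 and 2 in MB, and 0 and 1 in MB_lac. The MT library with 29 counts, replicate 1, was the one with counts for all 5 endothelial markers, which were at 0 in MT replicate 2. Fibroblast markers, as a sum, were higher in both MT replicates. The part of other cell types in the Mstn value was not tested.

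The other ligands had different levels. Gdf11 (ENSMUSG00000025352, chr10:128882295-128891718, minus strand), known for its role in patterning of the axial skeleton, reached 4.35 ± 0.985 RPKM (SD, n = 3) in GAS, and Mstn exceeded it 7.29-, 6.68- and 8.83-fold per length in the 3 libraries. Inhba (ENSMUSG00000041324, chr13:16011851-16031621, plus strand) was covered by only 6, 5 and 1 counts in GAS. The leading ligand was not the same in each group. Of the summed RPKM of the 3 ligands, Mstn made up 86.9% to 89.8% in GAS, Inhba 78.2% and 80.1% in MT, and Gdf11 71.5% and 85.7% in MB. Mstn lay above Inhba per length in MB replicate 1 and below it in MB replicate 2. GAS and cultured libraries were made with different protocols and scaled separately, so the differences between them were not tested. In bulk samples, fewer cells of a type and less RNA per cell cannot be told apart.

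The bases directly before the annotated starts of the 3 ligand genes are shown because these genes lead in GAS, in MT and in MB, respectively. Each stretch is the 250 bases before the RefSeq start (GRCm38.p6), written 5′ to 3′ on the strand of the gene, as chr1:53061390-53061639 for Mstn (plus strand), chr13:16011601-16011850 for Inhba (plus strand) and chr10:128891719-128891968 for Gdf11 (minus strand). Capitals mark letter matches, on either strand, to the E-box CANNTG that myogenic factors such as MYOD bind, to the Smad box CAGAC, or to the TATA box TATAAA.
Mstn: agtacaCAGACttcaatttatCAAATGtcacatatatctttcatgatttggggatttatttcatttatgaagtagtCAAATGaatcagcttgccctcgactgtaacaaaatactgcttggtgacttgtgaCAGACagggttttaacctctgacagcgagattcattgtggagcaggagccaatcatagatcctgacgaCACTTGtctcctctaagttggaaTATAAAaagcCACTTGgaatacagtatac
Inhba: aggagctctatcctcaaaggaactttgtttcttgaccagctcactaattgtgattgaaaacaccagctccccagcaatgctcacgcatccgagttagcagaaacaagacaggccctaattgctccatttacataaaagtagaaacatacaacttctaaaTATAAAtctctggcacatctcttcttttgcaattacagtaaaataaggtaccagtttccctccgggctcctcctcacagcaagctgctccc
Gdf11: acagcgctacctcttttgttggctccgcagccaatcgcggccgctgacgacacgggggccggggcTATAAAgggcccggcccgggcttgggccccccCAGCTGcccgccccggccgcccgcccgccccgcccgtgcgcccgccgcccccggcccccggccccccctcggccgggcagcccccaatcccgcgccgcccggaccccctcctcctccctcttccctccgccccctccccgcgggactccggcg

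The Mstn stretch held 4 E-boxes, starting 229, 174, 52 and 19 bases before the start, 2 Smad boxes 244 and 120 bases before it, and a TATA box 29 bases before it. The Inhba stretch held a TATA box 91 bases before the start and no match to the E-box or the Smad box. The Gdf11 stretch held 1 E-box 153 bases and 1 TATA box 185 bases before the start. In windows of 300 bases, which also take in 50 bases after the start, 72.3% of 32851 mouse promoters held an E-box, 6.49% held 4 or more, 49.6% held a Smad box and 13.6% a TATA box. A loose form of the MEF2 core (CTA and TAG with any 4 bases between them) was found in 3.69% of all promoters and, among the 9 members with a window, only in Acvr2b, where the bases between are G and C and not the A and T of a MEF2 site. The FoxO motif GTAAACA was found in none of the 9 and in 3.65% of all. The windows also differed in base composition, with 41.3% G and C for Mstn, 47.7% for Inhba and 80.7% for Gdf11 against a median of 52.7% over all windows. These are letter matches and do not show that a factor binds. Fst is not in the promoter table.

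Per kilobase of exon, the receptors and inhibitors in GAS followed the same order below Mstn in each library. Acvr1b (ENSMUSG00000000532, chr15:101174067-101213684, plus strand), the type I receptor of activin, came second at 14.3 ± 1.21 RPKM (SD, n = 3). Next were Fstl1 (ENSMUSG00000022816, chr16:37776873-37836514, plus strand) at 11.1 ± 0.904, Acvr2a (ENSMUSG00000052155, chr2:48814109-48903269, plus strand) at 7.37 ± 0.739 and Tgfbr1 (ENSMUSG00000007613, chr4:47353222-47414931, plus strand) at 6.13 ± 0.325 RPKM. Gdf11 lay below them. The lowest levels were those of Acvr2b (ENSMUSG00000061393, chr9:119402118-119434995, plus strand) at 1.38 ± 0.0547, Fst (ENSMUSG00000021765, chr13:114452290-114458951, minus strand) at 0.927 ± 0.0816, Fstl3 (ENSMUSG00000020325, chr10:79777272-79782630, plus strand) at 0.514 ± 0.143 and Inhba at 0.0318 ± 0.0209 RPKM. This order was the same in each of the 3 libraries, and in no pair of neighbours did the libraries overlap. The order depended on the length used. With the longest transcript in place of the exonic length, Fstl1 (14.4 RPKM) moved level with Acvr1b (14.3 RPKM). Tgfbr1 rose to 6.96 RPKM, near Acvr2a at 7.37 RPKM, and lay above Acvr2a in GAS replicate 3. Fst rose to 1.46 RPKM, so that 8 instead of 7 members exceeded 1 RPKM.

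The receptors of each type were not equally abundant. Among the type II receptors Acvr2a was the more abundant in all 9 libraries, by 4.70- to 5.93-fold per length in GAS and by 7.43- to 31.0-fold in cultured cells. Among the type I receptors Acvr1b led in GAS, where Tgfbr1 reached 0.399 to 0.459 times its RPKM. In the 6 cultured libraries Tgfbr1 led, at 1.23 to 17.7 times the RPKM of Acvr1b. The exons of Acvr2a overlap those of Orc4 on the opposite strand by 446 bases, and those of Fstl3 overlap Prss57 by 1157 bases. How strand was handled in counting is not given in the sources used here, so reads of these stretches cannot be told apart.

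**Figure D1:**
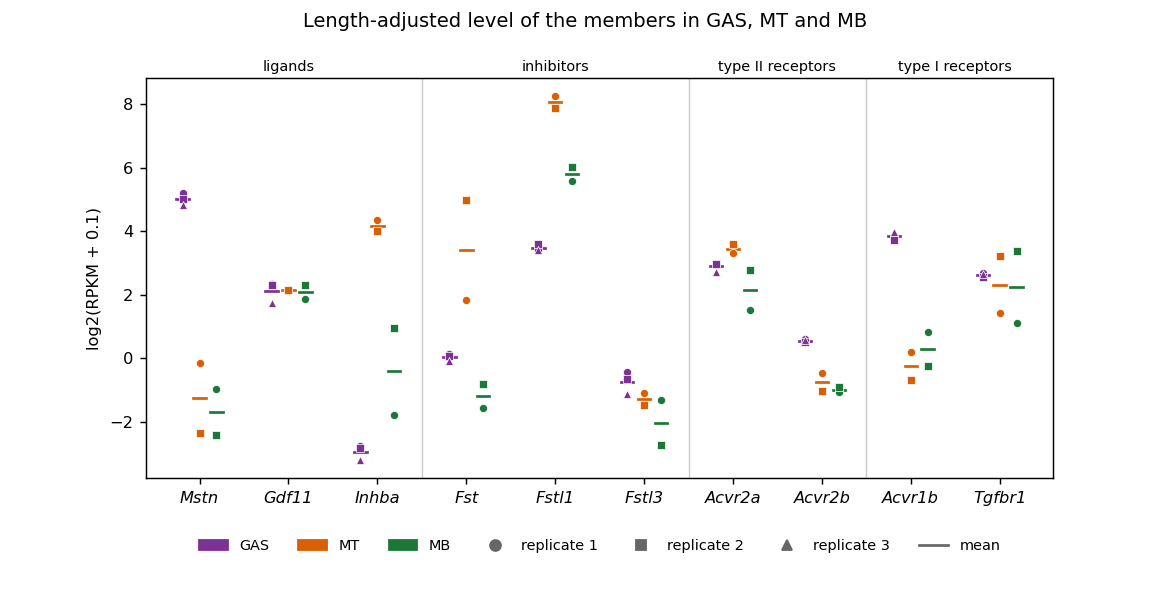
Level of the 10 genes per kilobase of exon, as log2(RPKM + 0.1), in GAS (3 libraries), MT (2) and MB (2). Points are libraries, with the marker giving the replicate, and bars are means of the log2 values. Mstn and Acvr1b lay highest in GAS, Inhba, Fst and Fstl1 in MT, while Gdf11 lay between 3.22 and 5.01 RPKM in these 7 libraries.

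The comparison of MT with MB asked which of these genes changed as myoblasts differentiated. It was made with edgeR's quasi-likelihood test on raw counts, with p-values adjusted over all 12921 genes tested by the Benjamini-Hochberg method, and a gene was called at an adjusted p under 0.05 and an absolute log2FC over 0.5. Of the 10 members, 8 passed the filter on low counts, while Mstn and Fstl3 did not. Inhba, Fst and Fstl1 rose in MT, and none fell. This is 3 of 8 tested members, where 11.0% of all tested genes were called higher and 6.86% lower. The count is a description only, since 2 of the 3, Inhba and Fst, passed the filter through the MT libraries alone and could hardly have been called lower. In the fit without a filter both were called higher as well, which does not lift this limit, since the counts in MB are the same. No member was lower at an unadjusted p under 0.05 in edgeR, and DESeq2 likewise called 3 higher and 0 lower. In 4 of the 8 both MT libraries lay above both MB libraries, as they did for 32.9% of all genes tested, and in 0 of the 8 below, as for 29.2% of all genes.

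Inhba stood at 129 and 102.5 CPM in the MT libraries and at 1.23 and 11.7 CPM in the MB libraries. The MT values were close to each other, while the MB values differed 9.54-fold. The log2FC was 4.23 (SE 0.81, 95% interval 2.44 to 6.02), an 18.8-fold increase with an adjusted p of 0.00605 in edgeR. It was 3.27 without MB replicate 1 and 6.40 without MB replicate 2. These fits hold no spread between the MB libraries, so only their log2FC is given.

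Fst had the highest log2FC of the 8 tested members. Its level was 15.8 and 145 CPM in MT and 1.10 and 2.17 CPM in MB, from 9 and 18 counts in the latter. Both MT libraries lay above both MB libraries, although the MT libraries differed 9.17-fold between themselves. The log2FC was 5.56 (SE 0.96, 95% interval 3.42 to 7.69), or 47.1-fold, with an adjusted p of 0.00375 in edgeR. Without MT replicate 1 it was 6.41 and without MT replicate 2 it was 3.18, in fits that hold no spread between the MT libraries. Per length, the ratio of Fst to Inhba was 0.170 in MT replicate 1 and 1.97 in MT replicate 2, so which of the pair led in MT was not settled by these libraries.

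Fstl1 was the most abundant member in each of the 6 cultured libraries. Its level was 1512 and 1168 CPM in MT against 233 and 320 CPM in MB, and the groups did not overlap. The log2FC was 2.30 (SE 0.55, 95% interval 1.09 to 3.51), or 4.92-fold, with an adjusted p of 0.0166 in edgeR. The increase missed the threshold when MT replicate 1 was left out (log2FC 2.03, adjusted p = 0.0983 in edgeR) and when MB replicate 1 was left out (log2FC 2.03, adjusted p = 0.0560). Fibroblast markers, as a sum, were higher in MT in the same libraries, as given above, and their part in the change of Fstl1 was not tested. The same holds for Inhba and Fst.

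The third inhibitor, Fstl3, was scarce in every cultured library. It had 12 and 5 counts in MT, 6 and 1 in MB and 2 and 0 in MB_lac, and it was not tested. Fstl1, the more distant relative, supplied 88.2% to 99.2% of the summed RPKM of the 3 genes listed as inhibitors in cultured cells. Leaving it out, Fst and Fstl3 together reached 3.81 and 31.8 RPKM in MT and 0.541 and 0.522 RPKM in MB.

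The remaining ligand and the receptors were not called. Gdf11 was at 17.1 and 17.8 CPM in MT and 14.6 and 19.5 CPM in MB, and the groups overlapped. Its log2FC of 0.05 had a 95% interval of -1.07 to 1.16, whose upper end is a 2.23-fold increase. Acvr2a, a receptor for both activin and myostatin, was at 55.8 and 68.6 CPM in MT and 15.8 and 38.7 CPM in MB. The groups did not overlap, but the log2FC of 1.22 (SE 0.50) missed the threshold with an adjusted p of 0.123 in edgeR, and it passed only without MB replicate 2 (log2FC 1.82, adjusted p = 0.0126).

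Acvr2b was low, at 2.46 and 1.53 CPM in MT and 1.47 and 1.69 CPM in MB, and its log2FC was 0.37 (95% interval -1.50 to 2.24). Acvr1b was at 4.62 and 2.29 CPM in MT and 7.48 and 3.25 CPM in MB, with a log2FC of -0.63 (95% interval -2.41 to 1.16). Both genes overlapped between groups. Tgfbr1 was at 16.9 and 59.8 CPM in MT and 13.6 and 67.9 CPM in MB, with a log2FC of -0.08 (95% interval -1.67 to 1.51). Here replicate 2 lay above replicate 1 in each group, by 3.54-fold in MT and 4.99-fold in MB, so that the spread within groups exceeded the difference between them.

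**Figure D2:**
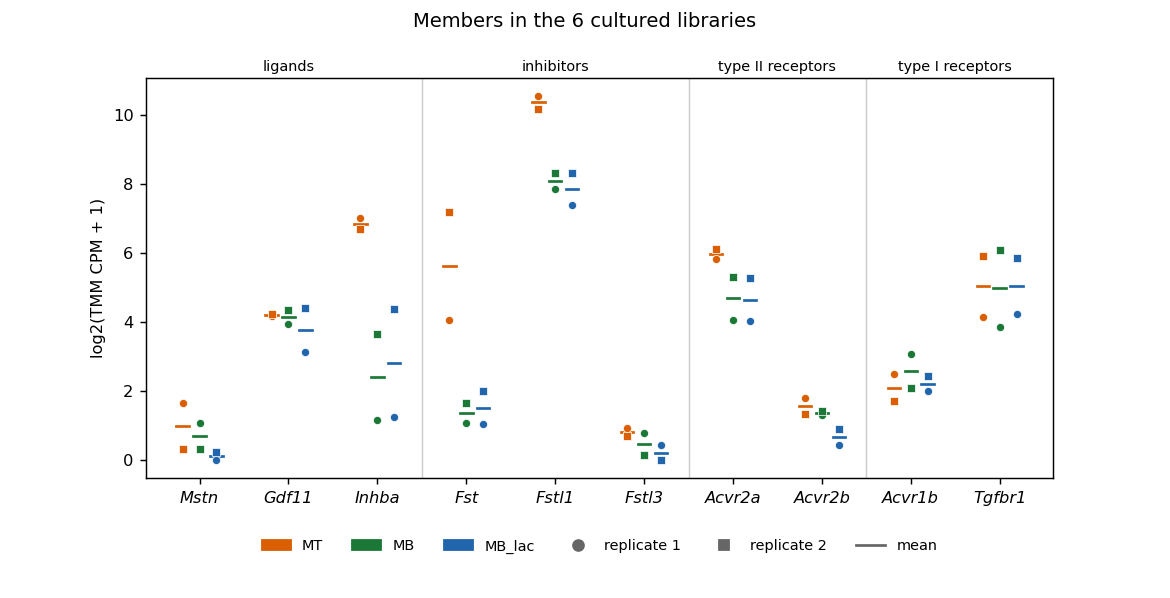
Normalized level of the 10 genes in the 6 cultured libraries, as log2(CPM + 1) with TMM scaling. Points are libraries, with the marker giving the replicate number, and bars are means. The MT points of Inhba, Fst, Fstl1 and Acvr2a lie above all MB points, while MB and MB_lac points interleave for most genes.

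Genes of the wider TGF-beta and BMP pathways were counted by list. Of 69 genes in 6 lists, 52 were tested, 16 rose in MT and 6 fell, with a median log2FC of 0.60 against 0.07 over all genes tested. These are 30.8% and 11.5% of the tested pathway genes, beside 11.0% and 6.86% of all tested genes. Of the 16 that rose, 6 passed the filter through the MT libraries alone (Inhbb, Bmp4, Tll1, Dcn, Chrd and Chrdl1), so that a call in the other direction was hardly open to them. Without MT replicate 1, 12 rose and 2 fell. Of the 17 genes not tested, 6 had between 19 and 96 counts in MT replicate 1 and 0 in MT replicate 2, and 0 had the reverse pattern with 10 or more counts in MT replicate 2.

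Among 13 further ligands, 4 of 7 tested rose and 0 fell, beside 11.0% and 6.86% of all tested genes, and with 7 genes a count of 0 lower is close to that share. Bmp4, a bone morphogenetic protein, was at 20.9 and 48.7 CPM in MT and 0.613 and 0.603 CPM in MB (log2FC 5.78, adjusted p = 0.000576 in edgeR). Tgfb2 and Tgfb3, which encode TGF-beta isoforms, had log2FC values of 3.84 and 3.48. Inhbb, which encodes the chain of activin B, was at 6.78 and 10.4 CPM in MT and 0.735 and 1.93 CPM in MB (log2FC 2.69, adjusted p = 0.0416 in edgeR). Inhba and Inhbb, the genes for the chains of activin A and activin B, were both called higher in MT. Both passed the filter through the MT libraries alone, so that a lower call was hardly open to them.

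Of 9 genes for activation and latency of the ligands, 8 were tested, of which 3 (37.5%) rose and 1 (12.5%) fell. These stand beside 11.0% and 6.86% of all tested genes, and with 8 genes a count of 1 lower is close to that share. Of the 3 that rose, Tll1 passed the filter through MT alone. Tll1, a protease of the BMP1 family that can cleave latent myostatin, had 32 and 17 counts in MT and 0 in both MB libraries, at least 6.23-fold higher when 3 counts per library are taken as the limit in MB. Bmp1, its relative, and Thbs1, which encodes thrombospondin, an activator of latent TGF-beta, rose with log2FC values of 1.59 and 2.61. Ltbp1, which encodes a protein that tethers latent TGF-beta to the matrix, fell by 1.61 on the log2 scale.

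Of 12 further extracellular inhibitors, 7 were tested, 4 rose and 0 fell, beside 11.0% and 6.86% of all tested genes. With 7 genes a count of 0 lower is close to that share. Of the 4 that rose, 3 (Chrdl1, Dcn and Chrd) are among those that passed the filter through MT alone. Chrdl1, an antagonist of BMP ligands, had 1561 and 597 counts in MT and 0 in both MB libraries, at least 264-fold higher against the same limit. Chrd, which encodes chordin, and Bmper, a further BMP-binding protein, had log2FC values of 6.34 and 3.60. Dcn, which encodes the proteoglycan decorin, had 5484 and 867 counts in MT and 0 and 2 in MB (adjusted p = 0.000174 in edgeR), and it is also in the list of fibroblast markers. Among 12 other receptors and co-receptors, 1 of 8 tested rose (12.5%), a share near the 11.0% of all tested genes. This was Tgfbr2, the type II receptor of TGF-beta, at 228 and 322 CPM in MT and 60.7 and 33.3 CPM in MB (log2FC 2.51, adjusted p = 0.00754 in edgeR).

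The intracellular part of the pathway is formed by the Smad proteins, which carry the signal to the nucleus, and by the genes they act on. None of 12 tested Smad genes and regulators was called by edgeR or DESeq2, and 0 had an unadjusted p under 0.05 in either, with log2FC values between -1.0 and 0.30. Of all 12921 genes tested, 4197 had an unadjusted p under 0.05 in edgeR. Of 10 target genes, all tested, 4 (40.0%) rose and 5 (50.0%) fell, beside 11.0% and 6.86% of all tested genes. Ccn2, a matricellular target of TGF-beta signalling, was at 63.8 and 318 CPM in MT and 10.1 and 21.1 CPM in MB (log2FC 3.59). Id1 and Id3, targets of BMP signalling that restrain myogenic factors, fell by 3.07 and 2.63 on the log2 scale, and Cdkn2b, an inhibitor of the cell cycle, fell by 3.26. The target list thus moved in both directions, with a median log2FC of 0.07.

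**Figure D3:**
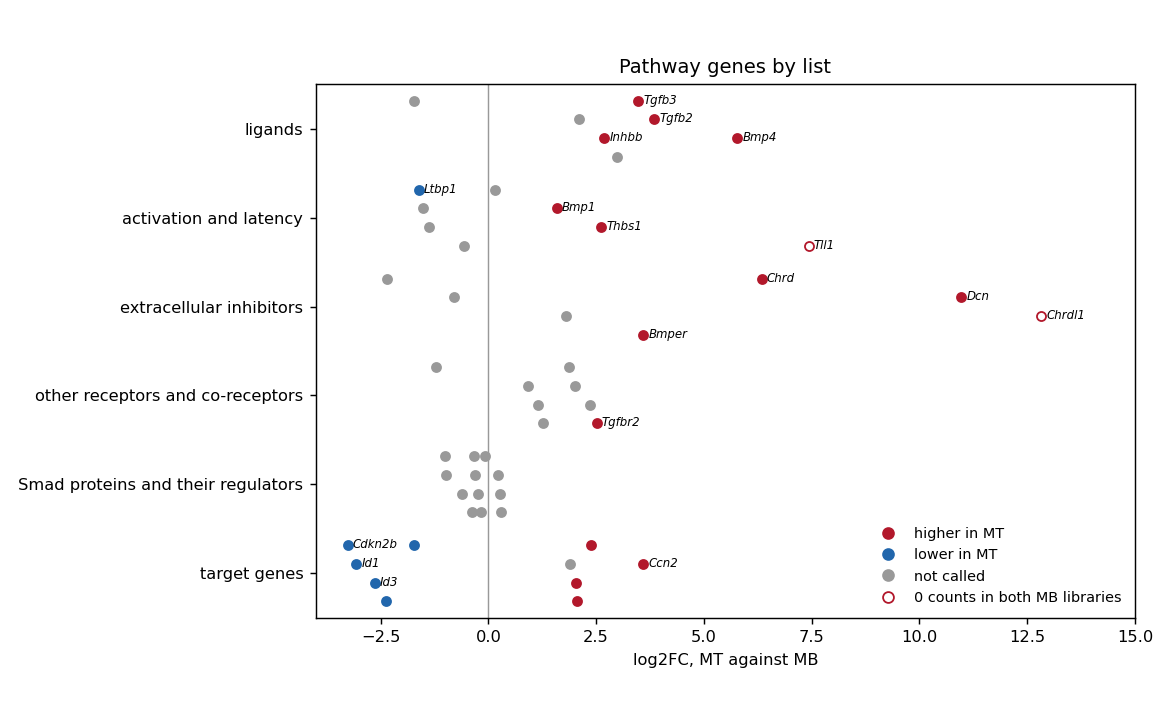
Change of the 52 tested pathway genes between MT and MB, one point per gene on the log2FC scale, by list (vertical spread within a list is for legibility only). Filled red points were called higher in MT, blue lower and grey were not called, and open red points had 0 counts in both MB libraries, so that their position depends on the prior count. The 12 Smad genes and regulators lie between -1.0 and 0.30.

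The comparison of MB_lac with MB asked whether lactate changed these genes in proliferating cells. No member was called. Of 11804 genes tested, 0 (0.0%) passed an adjusted p under 0.05 and 0 (0.0%) a nominal p under 0.01 with an absolute log2FC over 0.5, and 5 had an unadjusted p under 0.05 in edgeR and 3 in DESeq2, which also called 0 at an adjusted p. None of the 8 tested members had an unadjusted p under 0.05 in either tool, and every one had an adjusted p of 1.0 in edgeR. The log2FC values of the members lay between -1.35 and 0.72, with a median of -0.17. Their 95% intervals, from a fit that did not pair equal replicate numbers, spanned between 2.31 and 6.55 log2 units. Only large changes would have been detectable in this fit.

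Among the ligands, Inhba was at 1.41 and 20.1 CPM in MB_lac and 1.23 and 11.7 CPM in MB. Replicate 2 exceeded replicate 1 by 14.3-fold with lactate and 9.54-fold without, and the log2FC was 0.72 (95% interval -2.55 to 4.00). Without MB replicate 2, the log2FC of Inhba was 3.12, and without MB_lac replicate 2 it was -2.26. Gdf11 was at 7.73 and 20.4 CPM in MB_lac and 14.6 and 19.5 CPM in MB, with a log2FC of -0.29 (95% interval -1.78 to 1.19). Mstn had 0 and 1 counts with lactate and 9 and 2 without, and was not tested. Its level was lower in both MB_lac libraries, but 3 of the 4 libraries had fewer than 3 counts.

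The inhibitors overlapped between the groups. Fst was at 1.05 and 3.02 CPM in MB_lac and 1.10 and 2.17 CPM in MB, with a log2FC of 0.29 (95% interval -1.87 to 2.46). Fstl1 was at 169 and 318 CPM in MB_lac and 233 and 320 CPM in MB, with a log2FC of -0.21 (95% interval -1.36 to 0.95), the narrowest interval among the members.

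Of the receptors, Acvr2b lay lower in both MB_lac libraries than in both MB libraries, at 0.351 and 0.889 CPM against 1.47 and 1.69 CPM. These values rest on 2 and 5 counts with lactate and 12 and 14 without, and the log2FC was -1.35 (95% interval -3.62 to 0.92, unadjusted p = 0.198 in edgeR). Acvr2b passed the filter through the MB libraries alone. It was the only tested member whose groups did not overlap, 1 of 8, where 11.1% of all tested genes had no overlap in either direction. Acvr2a was at 15.3 and 37.9 CPM in MB_lac and 15.8 and 38.7 CPM in MB, which gave ratios of 0.967 and 0.979 within replicate numbers 1 and 2. Its log2FC of -0.06 still had a 95% interval of -1.67 to 1.56, since replicate 2 exceeded replicate 1 by 2.48-fold and 2.45-fold in the 2 groups. Acvr1b (log2FC -0.55, 95% interval -2.19 to 1.08) and Tgfbr1 (log2FC -0.12, 95% interval -2.26 to 2.02) overlapped between groups.

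Of the wider pathway, 47 of 69 genes were tested and 0 were called by edgeR or DESeq2, with 0 at an unadjusted p under 0.05 in either. Their log2FC values lay between -1.64 and 0.65, with a median of -0.06 against 0.00 over all genes tested. Both comparisons used the same 2 MB libraries. Inhba, Fst and Fstl1 had log2FC values of 4.23, 5.56 and 2.30 in MT and of 0.72, 0.29 and -0.21 with lactate, and the difference between the comparisons was not tested.

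**Figure D4:**
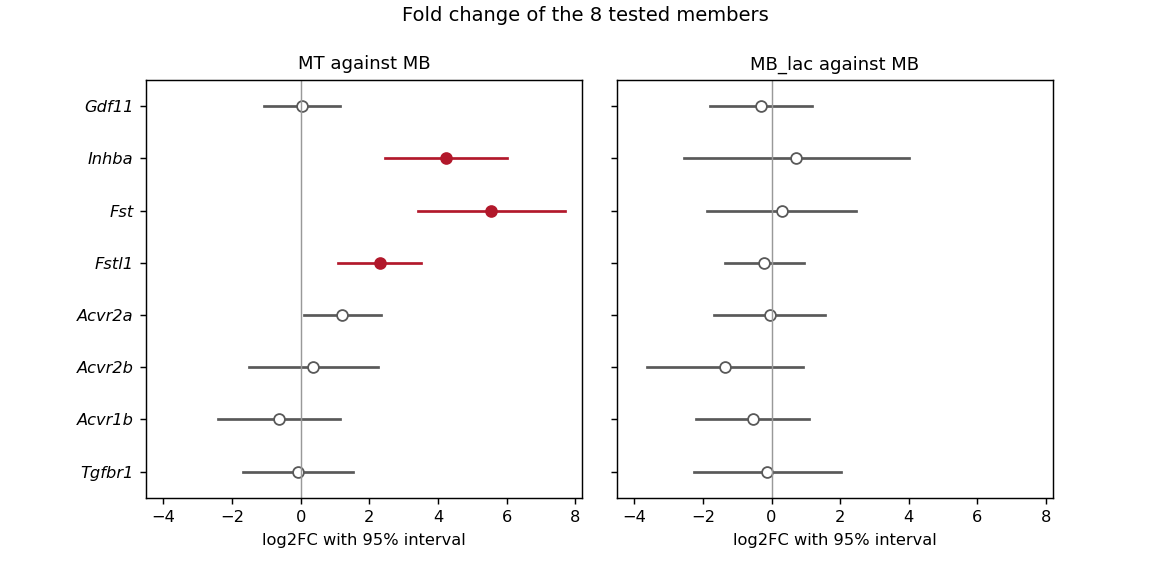
Log2FC of the 8 tested genes with 95% intervals from edgeR's quasi-likelihood fit, MT against MB on the left and MB_lac against MB on the right. Filled red points were called at an adjusted p under 0.05 (Inhba, Fst and Fstl1 in MT), and with lactate every interval includes 0.

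The genes whose pattern over the 6 cultured libraries was most like that of Mstn, Fst and Inhba were found among 13105 genes, by the mean absolute difference of log2(CPM + 1) after centring each gene on its mean. For Fst these were Col25a1, Mmp13 and Pln, with differences of 0.284, 0.296 and 0.306 log2 units. Col25a1 encodes a transmembrane collagen, Mmp13 a collagenase and Pln phospholamban, a regulator of the calcium pump. Like Fst, they were higher in MT replicate 2 (79.9, 69.2 and 31.8 CPM) than in MT replicate 1 (12.96, 7.30 and 5.73 CPM) and at most 0.964 CPM in MB and MB_lac.

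For Inhba the nearest genes were Dnm3os, Ncam1 and Xirp1, at 0.478, 0.551 and 0.563 log2 units. Dnm3os, a long noncoding RNA, was at 92.0 and 114 CPM in MT, 2.08 and 30.1 CPM in MB and 3.16 and 38.9 CPM in MB_lac, so that it also had its higher value in replicate 2 of MB and of MB_lac. Ncam1 encodes a cell adhesion molecule and Xirp1 an actin-binding protein of muscle. For Mstn the nearest were Cpe, Sash1 and Apbb1ip, with 0.107 log2 units for Cpe, the closest of them. Mstn varied little on this scale because it had at most 29 counts in any cultured library, and these 3 genes are named by the rule only.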

How the data were processed

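Counts of 9 libraries were used. The authors trimmed the reads (Trim Galore 0.6.6), aligned them to mm10 (HISAT2 2.2.1) and counted them on genes (featureCounts of Subread 2.0.1). They deposited these counts unnormalized. The annotation release, strand setting and treatment of multimapping reads are not given in the sources used here. Symbols, coordinates and exonic lengths came from GENCODE M21, and promoters from RefSeq.

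CPM values were scaled by TMM within GAS and within the cultured libraries. RPKM is CPM per kilobase of exon. Each comparison was fitted in edgeR 4.0.16 (R 4.3.3) with the libraries compared, filterByExpr, TMM and the default prior count, and intervals are 95%. DESeq2 1.42.0 was an alternative. The fits were tested on simulated data. Pairing of equal replicate numbers was checked by the correlation of deviations. No duplicated library was found.

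Members and lists were chosen with earlier results of these data known. Named genes were the 10 members, up to 4 called genes per list with the largest absolute log2FC, markers, and 3 genes most like Mstn, Fst and Inhba. No protein sequences were used here. Alternatives were RLE size factors, other filters, a replicate block, all 6 cultured libraries in 1 fit, another prior count or gene length, and leaving out libraries or ribosomal RNA genes.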

Additional observations from a re-analysis of the deposited data

How the results depend on the processing

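The alternatives were recomputed for MT against MB, for MB_lac against MB and for the levels in GAS. In MT, 3 members were called higher and 0 lower under edgeR with RLE size factors, DESeq2, no filter, all 6 cultured libraries and the replicate block. With at least 10 counts in every library, Fst was not tested. Whether a replicate number marks a shared batch is not stated, so the block was only an alternative. The deviations of libraries with equal numbers correlated at -0.132 between MT and MB and at 0.705 between MB_lac and MB. With the block, 1447 genes were higher and 824 lower in MT, and 13 genes, 0 of them members, passed the nominal threshold with lactate. A crossed block for MT and MB, chosen after seeing the data, gave 1192 higher and 867 lower.
A filter of at least 10 counts called 766 higher and 678 lower in MT, and DESeq2 1729 and 1292. Leaving out each library in turn gave between 962 and 4118 genes higher and between 270 and 1570 lower, and between 2 and 8 pathway genes lower. The most called higher were found without MT replicate 2 and the fewest lower without MT replicate 1.

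Among the members not called in MT, all but Acvr2a changed the sign of the log2FC when a library was left out. Acvr2a stayed between 0.64 and 1.82. The ranges were -0.20 to 0.10 for Gdf11, -0.11 to 0.54 for Acvr2b, -1.32 to 0.054 for Acvr1b and -1.31 to 1.32 for Tgfbr1. Tgfbr1 also turned with at least 10 counts (0.0041), with the replicate block (0.062) and with the crossed block (0.051). With lactate, 1 gene passed the nominal threshold with DESeq2 and 1 without a filter. Leaving out each library gave between 0 and 2 genes higher at an adjusted p (2 without MB replicate 1), between 1 and 177 nominal calls, of which 177 were found without MB replicate 2, and between 0 and 1 members, which was Inhba. The log2FC then ranged from -1.21 to 0.28 for Gdf11, -2.26 to 3.12 for Inhba, -0.70 to 0.89 for Fst, -0.79 to 0.22 for Fstl1, -0.91 to 0.74 for Acvr2a, -1.02 to 0.23 for Acvr1b and -1.26 to 1.47 for Tgfbr1, which was 0.031 with the replicate block. The causes were not tested. In fits with 1 library in a group, that library is assumed to vary like the others. At this depth Mstn and Fstl3 did not pass the filter in cultured cells. In edgeR's fit without a filter, their log2FC in MT was 0.84 (adjusted p = 0.878) and 0.82 (adjusted p = 0.899).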
